A study of Mus musculus with 2 samples.

Results

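Claudins and the proteins around them were followed in the cochlea of the young mouse. The set holds 8 genes, chosen by symbol: the claudins Cldn3, Cldn6, Cldn9, Cldn11 and Cldn14, the scaffold gene Tjp1, and the tricellular junction genes Ildr1 and Marveld2. All 8 were among the 27998 genes of the files, and all 8 had at least 1 UMI (unique molecular identifier, a tag that counts each captured transcript once) in the kept cells. Single-cell RNA sequencing was done on trypsin-dissociated cochleae of wild-type C57BL/6 mice at postnatal day 20, in 1 group of 2 libraries. The cochleae of several mice were harvested, and nothing in the labels says that the libraries came from separate pools, so the p-values below measure only the spread between these sums, which may be technical.

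A tight junction seals the gap between neighbouring epithelial cells. Claudins form its strands and set which ions pass, tricellulin (Marveld2) and the angulins (Ildr1 among them) close the points where cell corners meet, and ZO-1 (Tjp1) ties the strands to actin. In the cochlea these seals separate the potassium-rich endolymph from perilymph, and claudin 11 is known for the junctions between basal cells of the stria vascularis. Loss of CLDN14, CLDN9, ILDR1 or MARVELD2 causes deafness in people.

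The libraries held 1610 and 720 barcodes with 20212520 and 7094752 UMIs. Barcodes below 300 genes or above 20% mitochondrial UMIs were dropped, and after removal of doublet calls 1329 cells of library 1 and 640 of library 2 remained, with medians of 10601 and 6116 UMIs. Only 2 barcode sequences occurred in both libraries. Cells were clustered on other genes, with all 8 genes kept out, and a cluster was called "X-like" where a marker list identified it. The others are called by a pair of their leading genes. Summed markers put 299 cells in epithelial classes, 1014 in mesenchymal classes and 624 in blood classes, and left 32 glia-like, neuron-like and intermediate cell-like cells. The epithelial classes were hair cell-like (48 and 4 cells in libraries 1 and 2), supporting cell-like (28 and 0), Otol1/Lfng (54 and 7), Ucma/Epyc (34 and 21), Fabp7/Fzd9 (43 and 6), non-sensory epithelium-like (17 and 28) and marginal cell-like (0 and 9). The mesenchymal classes were fibroblast-like (149 and 166), fibrocyte-like (49 and 24), Sptssb/Tnfaip6 (50 and 137), Hal/Nov (148 and 37), Lox/Coch (66 and 103) and Bglap/Col2a1 (67 and 18). No class could be named stria basal cell-like, the cells for which claudin 11 is known. A name needed 3 markers, all of that list. Hal/Nov cells passed with Nrp2 (119.5 and 132 CPM) and Nr2f2 (517 and 507 CPM) but not with Sox8. In the other mesenchymal classes Nr2f2 was similar, at 366 to 558 CPM, and Nrp2 was lower, at 1.31 to 79.2 CPM. Intermediate cell-like cells had 334 and 613 CPM of Nrp2.

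By the GENCODE annotation of GRCm38 (mm10), Cldn3 is a gene of 1 exon on chromosome 5 (134986214 to 134987472, plus strand). Cldn9 also has 1 exon and lies on chromosome 17 (23682584 to 23684026, minus strand), tail to tail with Cldn6 (23679249 to 23682446, plus strand). Only 137 bases separate this pair, and their transcripts share no run longer than 37 bases. Cldn11 has 3 exons on chromosome 3 (31149920 to 31164324, plus strand). Cldn14 lies on chromosome 16 (93919031 to 94008837, minus strand) and Ildr1 on the same chromosome (36693978 to 36726804, plus strand). Tjp1 lies on chromosome 7 (65296165 to 65527781, minus strand) and Marveld2 on chromosome 13 (100595957 to 100616971, minus strand). Cldn3, Cldn14, Tjp1 and Marveld2 overlap small annotated genes, and Ildr1 transcripts share runs of 50 bases with transcripts of 84 other genes, so the values of these 5 genes could include or lose reads that the counting split.

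The promoters of 2 genes that were high in epithelial classes and of the claudin that was high in mesenchymal classes are shown from RefSeq (build GRCm38.p6, each 250 bases before to 50 after an annotated start). Of the 8 genes, 7 had an entry, and Cldn9 had none. Both strands were searched for CACCTG, the E-box bound by Snail and Zeb repressors of epithelial genes, and for AACCNGTT, the motif of grainyhead-like factors. Capitals mark CACCTG on either strand.
Cldn3 (chr5:134985964-134986263, plus strand): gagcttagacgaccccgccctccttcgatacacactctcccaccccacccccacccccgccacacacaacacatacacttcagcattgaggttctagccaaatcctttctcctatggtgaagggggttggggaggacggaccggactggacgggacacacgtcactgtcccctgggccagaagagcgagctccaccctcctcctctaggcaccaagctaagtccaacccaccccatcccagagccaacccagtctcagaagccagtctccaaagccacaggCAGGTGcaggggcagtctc
Ildr1 (chr16:36693728-36694027, plus strand): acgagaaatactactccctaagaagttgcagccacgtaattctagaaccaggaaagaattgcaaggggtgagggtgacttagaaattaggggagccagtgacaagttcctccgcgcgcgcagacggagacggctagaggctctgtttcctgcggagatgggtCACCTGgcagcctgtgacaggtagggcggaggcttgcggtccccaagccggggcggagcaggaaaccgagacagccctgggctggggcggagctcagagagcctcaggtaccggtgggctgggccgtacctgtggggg
Cldn11 (chr3:31149670-31149969, plus strand): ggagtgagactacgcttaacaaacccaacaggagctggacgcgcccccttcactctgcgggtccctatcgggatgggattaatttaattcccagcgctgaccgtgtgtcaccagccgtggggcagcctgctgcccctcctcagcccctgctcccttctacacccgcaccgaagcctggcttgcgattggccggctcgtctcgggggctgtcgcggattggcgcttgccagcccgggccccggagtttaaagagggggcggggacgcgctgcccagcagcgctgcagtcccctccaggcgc
The E-box starts 31 bases after the start in Cldn3 and at position -88 in Ildr1, and these letters do not occur in the Cldn11 window. Of the 7 genes with an entry, Cldn3, Cldn6, Ildr1 and Marveld2 had it in every window, Cldn14 in 1 of 3 windows, and Cldn11 and Tjp1 in none. It occurs in 20.2% of 32851 promoters of this length. AACCNGTT occurs in 2.09% of them and in none of the windows found for these 7 genes.

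The set split by compartment. Cldn9, Cldn14, Cldn3, Ildr1 and Marveld2 were higher in epithelial than in mesenchymal classes, and Cldn11 and Tjp1 were lower. This gives 5 higher and 2 lower of 8 genes tested, with a threshold of 0.05 on the adjusted p of edgeR's quasi-likelihood test. Over all 5634 genes tested, 20.7% were called higher and 26.6% lower, so a call in itself is common in this comparison. The size of the changes is given by the median log2 fold change, 5.78 over the 8 genes (with Marveld2 at a lower bound), against -0.09 over all genes tested. All 8 passed the filter on low counts (16.8 CPM in some sums, CPM being UMIs per 1000000 of the sum). Cldn3, Cldn6, Cldn9, Cldn14, Ildr1 and Marveld2 reached that level in 2 to 10 of the 10 epithelial sums and in no more than 1 of the 12 mesenchymal sums, so they had to be high in the epithelium to be tested, and the count and the median are descriptions. The plot of levels by class and library shows the split.

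**Figure D1:**
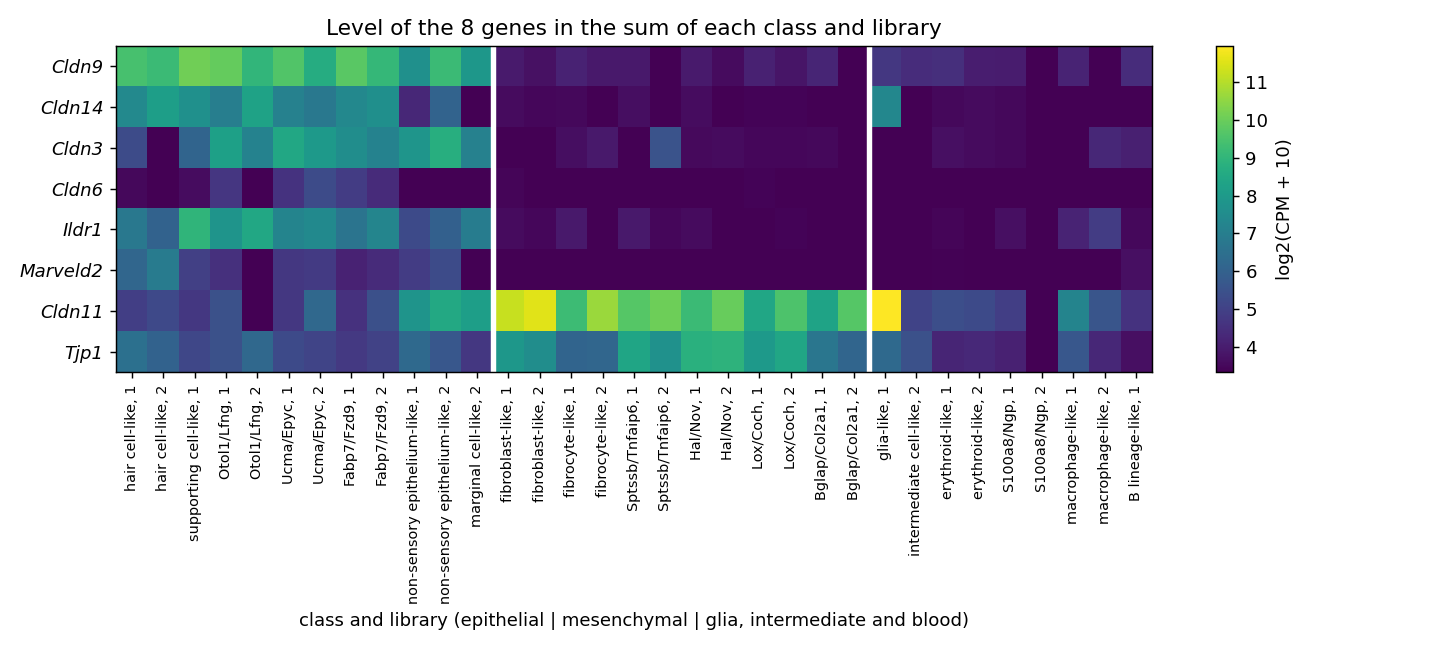
Level of the 8 genes in each class and library of at least 4 cells, except neuron-like cells, as log2 of CPM plus 10. Epithelial, mesenchymal and other classes are parted by white lines, with the library number after each class name. Cldn9, Cldn14, Cldn3 and Ildr1 are brighter in most epithelial columns than in mesenchymal ones, Cldn6 is dim throughout, and Cldn11 is brightest in fibroblast-like cells (2407 and 3055 CPM) and in the 4 glia-like cells of library 1.

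Cldn9 encodes a claudin that hair cells and supporting cells need for hearing. It had the most UMIs of the 5 claudins in pooled epithelial cells and was seen in every epithelial class. Pooled over epithelial cells it had 817 and 476 CPM in libraries 1 and 2, against 6.41 and 2.72 CPM in mesenchymal cells. Its log2 fold change was 6.85 ± 0.24 (SE; edgeR, adjusted p = 2.02e-181), and the libraries did not overlap between compartments. Otol1/Lfng cells had 959 and 504 CPM, Fabp7/Fzd9 cells 855 and 534 CPM, hair cell-like cells 687 and 583 CPM, Ucma/Epyc cells 770.3 and 398 CPM, and non-sensory epithelium-like cells 191 and 579 CPM. These ranges overlap between each class and the next in the order of means, and in none of the 5 classes did Cldn9 differ from the mean of the other epithelial classes (edgeR, adjusted p from 0.228 to 0.875). Supporting cell-like cells, found in library 1 alone, had 1086 CPM (Poisson 95% interval 989.6 to 1189.6, counting error only). The 9 marginal cell-like cells of library 2 had 228 CPM.

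Cldn9 transcripts were found in almost every epithelial cell of library 1. A UMI of Cldn9 was seen in 222 of 224 epithelial cells of library 1 (99.1%, exact 95% interval 96.8 to 99.9) and in 65 of 75 of library 2 (86.7%, 76.8 to 93.4). Erythroid-like cells, which should lack the gene, gave a background of 13.3% and 7.69%, and mesenchymal cells had 9.26% and 2.89%. Median depths were 14000.5 and 6680 UMIs in epithelial cells and 10683 and 12729 UMIs in erythroid-like cells. With every cell thinned to 2000 UMIs, which left out no cell, the shares were 71.4% and 52.0% in epithelial cells, against 2.42% and 0% in erythroid-like cells (0 of 39 cells, exact 95% upper limit 9.03%). Mesenchymal shares of Cldn9 were thus at or below the erythroid-like background.

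The other epithelial genes were found in fewer cells. Cldn14 was seen in 77.7% and 44.0% of epithelial cells, against 1.45% and 2.56% of erythroid-like cells, and Cldn3 in 67.9% and 66.7%, against 3.15% and 2.56%. Ildr1 was seen in 72.8% and 54.7% of epithelial cells, against 0.969% and 0% of erythroid-like cells. Marveld2 was seen in 28.6% and 14.7% of epithelial cells and Cldn6 in 11.2% and 6.67%. Thinned to 2000 UMIs, the epithelial shares were 19.2% and 25.3% for Cldn14, so that the order of the libraries for Cldn14 turned round, and 27.2% and 20.0% for Ildr1.

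Cldn14, whose loss causes hair cell degeneration in mice, was below Cldn9 in every epithelial class, and was low in non-sensory epithelium-like cells. It had 141 and 118 CPM in epithelial cells, against 1.54 and 0.389 CPM in mesenchymal cells, a log2 fold change of 6.84 ± 0.39 (edgeR, adjusted p = 1.42e-65; 4.32 in library 1 alone). The levels were 158 and 278 CPM in hair cell-like cells, 120 and 307 CPM in Otol1/Lfng cells, 154 and 189 CPM in Fabp7/Fzd9 cells and 131 and 101 CPM in Ucma/Epyc cells. Hair cell-like, Otol1/Lfng and Fabp7/Fzd9 cells overlap in these ranges. Non-sensory epithelium-like cells had 9.54 and 57.9 CPM, from 2 and 10 UMIs, and lay below all of them. Against the mean of the other epithelial classes Cldn14 was lower there by a log2 fold change of -2.39 ± 0.41 (edgeR, adjusted p = 3.47e-07), and by -3.65 and -1.55 in libraries 1 and 2 alone. Such single-library values are differences of mean log2 CPM with a prior count of 2, which shrinks low counts, and carry no test. Marginal cell-like cells had 0 UMIs of Cldn14, which at their depth allows up to 48.8 CPM. Supporting cell-like cells of library 1 had 192 CPM.

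Across these comparisons of each epithelial class with the mean of the other epithelial classes, 10 of 40 tests of the 8 genes were called higher and 3 lower, against 7.96% and 3.88% of all tests. By class, the share of all genes called higher was 4.81% in Otol1/Lfng, 5.11% in Ucma/Epyc, 6.71% in Fabp7/Fzd9, 8.24% in non-sensory epithelium-like and 14.9% in hair cell-like cells. The share called lower was 3.85% in non-sensory epithelium-like and 11.6% in hair cell-like cells. Against the mean of all 13 other classes, blood included, 39 of 112 tests of the 8 genes were called higher and 17 lower, beside 16.8% and 5.52% of all tests. Cldn3, Cldn6, Cldn9, Cldn14, Ildr1 and Marveld2 had to be high in the epithelium to be tested. Higher calls of these genes in epithelial classes thus follow in part from the filter, and the counts of calls are descriptions. Fabp7/Fzd9 and hair cell-like cells were the classes where Cldn14 was higher, by 0.91 ± 0.26 and 0.70 ± 0.27 on the log2 scale (edgeR, adjusted p = 0.00889 and 0.0422). Neither of these calls held with DESeq2 (adjusted p = 0.461 and 0.108), nor without the library as a block (0.0513 and 0.112). In library 2 alone the values were 0.60 and 0.34.

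Cldn3, a broadly expressed sealing claudin, was lower in hair cell-like cells than in the other fitted epithelial classes. Hair cell-like cells had 29.5 CPM in library 1 and 0 UMIs in library 2, where 4 cells allow up to 83.3 CPM. Ucma/Epyc cells had 357 and 244 CPM, non-sensory epithelium-like cells 219.5 and 417 CPM, Otol1/Lfng cells 291 and 131 CPM and Fabp7/Fzd9 cells 178 and 133 CPM. Hair cell-like cells lay below every value of these 4 classes. Against the mean of the other epithelial classes Cldn3 was lower in hair cell-like cells by -3.29 ± 0.37 (edgeR log2 fold change, adjusted p = 2.79e-17), and this call held with DESeq2 (adjusted p = 0.00105). Library 2 alone gave -5.86. Supporting cell-like cells, at 58.5 CPM (37.9 to 86.4), were also below those 4 classes in library 1. Cldn3 was called higher in Ucma/Epyc cells (1.34 ± 0.23, edgeR, adjusted p = 1.17e-06) and in non-sensory epithelium-like cells (1.03 ± 0.26, adjusted p = 0.00151), but with DESeq2 these calls were lost (adjusted p = 0.349 and 0.345). The Ucma/Epyc value was 2.097 in library 2 alone, 0.49 with stricter cell filters (edgeR, adjusted p = 0.309) and 0.34 with at least 10 cells per class (0.669). The non-sensory epithelium-like value was 0.42 with stricter cell filters (adjusted p = 0.344), -0.34 with at least 10 cells per class (0.669), where these were the epithelial classes left, 0.31 in library 1 alone and 2.74 in library 2 alone. Pooled, Cldn3 had 179 and 242 CPM in epithelial cells, against 1.31 and 6.998 CPM in mesenchymal cells (log2 fold change 6.28 ± 0.30, edgeR, adjusted p = 5.48e-93; 3.62 in library 2 alone).

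Cldn6, a claudin better known from embryonic epithelia, was near the limit of detection. It had 44 UMIs in all, 42 of them in epithelial cells (36 and 6 in libraries 1 and 2) and 2 in mesenchymal cells. Ucma/Epyc cells had 14.01 and 29.7 CPM and Fabp7/Fzd9 cells 19.1 and 11.1 CPM. Otol1/Lfng cells had 15.8 CPM in library 1 and 0 UMIs in library 2. Hair cell-like cells had 1 UMI and non-sensory epithelium-like cells none. Cldn6 did not pass in epithelial against mesenchymal classes (edgeR, adjusted p = 1, with a fit too flat to give an SE; DESeq2, adjusted p = 0.135). Calls that it was higher in Ucma/Epyc and Fabp7/Fzd9 than in other epithelial classes (edgeR, adjusted p = 0.0368 and 0.0310) were lost with DESeq2 (adjusted p = 0.898 and 0.934). Their log2 fold changes of 2.91 and 2.69 were 1.06 and 1.57 in library 1 alone, and the Fabp7/Fzd9 value was 1.23 in library 2 alone.

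The tricellular genes divided the epithelium in different ways. Ildr1, the angulin of tricellular contacts in the organ of Corti, was highest in cells that express Otol1 and Lfng and in supporting cell-like cells. Marveld2, which encodes tricellulin, was highest in hair cell-like cells. Both were near or at 0 outside the epithelium.

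Ildr1 had 170.3 and 129 CPM in epithelial cells, against 1.78 and 0.583 CPM in mesenchymal cells (log2 fold change 6.40 ± 0.35, edgeR, adjusted p = 3.26e-73). Otol1/Lfng cells had 210.3 and 351 CPM, above both values of every other fitted class. Ucma/Epyc cells had 140.1 and 161 CPM, Fabp7/Fzd9 cells 89.96 and 145 CPM, hair cell-like cells 101 and 55.5 CPM, and non-sensory epithelium-like cells 28.6 and 52.1 CPM. Ildr1 was higher in Otol1/Lfng cells than in the mean of the other epithelial classes by 1.29 ± 0.26 and lower in non-sensory epithelium-like cells by -1.91 ± 0.40 (edgeR log2 fold changes, adjusted p = 3.22e-05 and 3.79e-05). Both calls held under each alternative fit in which that class could be tested, and the value in non-sensory epithelium-like cells was -1.26 in library 2 alone. Supporting cell-like cells of library 1 had 494 CPM (430 to 565), above the 210.3 CPM of Otol1/Lfng cells in the same library.

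Marveld2 had 63.1 and 111 CPM in hair cell-like cells, from 47 and 4 UMIs. Non-sensory epithelium-like cells had 19.1 and 28.9 CPM, Ucma/Epyc cells 16.3 and 17.8 CPM, Fabp7/Fzd9 cells 7.87 and 11.1 CPM, and Otol1/Lfng cells 12.96 CPM in library 1 and 0 UMIs in library 2. Hair cell-like cells lay above all other fitted classes in both libraries. The log2 fold change in hair cell-like cells against the mean of the other epithelial classes was 2.11 ± 0.46 (edgeR, adjusted p = 4.01e-05), a call that DESeq2 did not make (adjusted p = 0.776). Of 100 UMIs of Marveld2, 96 were in epithelial cells and 0 in the 1014 mesenchymal cells. Against a floor of 3 counts per library for pooled mesenchymal cells, epithelial cells were at least 68.7-fold higher in library 1 and at least 38.8-fold higher in library 2 (edgeR, adjusted p = 1.55e-27).

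Cldn11 was the claudin of the mesenchyme. Pooled epithelial cells had 32.1 and 165 CPM, against 762 and 1354 CPM in mesenchymal cells. The log2 fold change over classes was -4.47 ± 0.24 (edgeR, adjusted p = 2.66e-78). Fibroblast-like cells had 2407 and 3055 CPM and stood above both values of every other fitted class. Sptssb/Tnfaip6 cells had 806 and 1050.3 CPM, fibrocyte-like cells 602 and 1631 CPM, Hal/Nov cells 590 and 977 CPM, Lox/Coch cells 341 and 745 CPM, and Bglap/Col2a1 cells 314 and 820.2 CPM. Each of those 5 classes overlaps with the next in the order of means, and library 2 was higher in each of the 6 mesenchymal classes.

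Fibroblast-like cells exceeded the mean of the other mesenchymal classes in Cldn11 by a log2 fold change of 1.91 ± 0.27 (edgeR, adjusted p = 1.02e-10), and this call held under each alternative fit that could test it. Bglap/Col2a1 cells were lower by -1.09 ± 0.34 (adjusted p = 0.0383), a call that was lost with DESeq2 (adjusted p = 0.330) and without the library block (adjusted p = 0.230). In all, 4 of 48 tests of the 8 genes in mesenchymal classes against the mean of the other mesenchymal classes were called higher and 3 lower, against 6.32% and 3.45% of all tests. Many of these tests could hardly give a call, since Cldn3, Cldn6, Cldn9, Cldn14, Ildr1 and Marveld2 passed the low-count filter through epithelial classes. Marveld2 had 0 mesenchymal UMIs and Cldn6 had 2. Of the 4 higher calls, 1 was Cldn3 in Sptssb/Tnfaip6 cells, which rested on 1 cell described below. These counts are descriptions. By class, the share of all genes called higher was 2.18% in Sptssb/Tnfaip6, 5.24% in Hal/Nov, 6.34% in fibroblast-like, 6.41% in Lox/Coch and 14.5% in fibrocyte-like cells. The share called lower was 1.03% in Bglap/Col2a1 and 11.5% in fibrocyte-like cells.

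In some mesenchymal classes every cell had a Cldn11 UMI, and in others some cells had none. None of the 315 fibroblast-like and none of the 185 Hal/Nov cells was at 0, while 12 of 49 and 3 of 24 fibrocyte-like cells were. Median depths differed, at 5532 and 5542 UMIs in fibroblast-like, 22578.5 and 24115 in Hal/Nov, and 12889 and 11948 in fibrocyte-like cells. In Hal/Nov cells the 5th to 95th percentiles were 2.01 to 15.4 and 4.01 to 18.4 UMIs per 10000 of the cell. Over all mesenchymal cells a Cldn11 UMI was seen in 92.6% and 94.6%, against 24.2% and 33.3% of erythroid-like cells, and epithelial cells had 25.4% and 44.0%. In fibrocyte-like cells the medians were 1.54 and 2.78 UMIs per 10000 of the cell, with 95th percentiles of 25.5 and 48.4. The 12 and 6 fibrocyte-like cells with the most Cldn11 per UMI held 85.0% and 90.6% of the Cldn11 UMIs of the class. In those cells Otos, which encodes otospiralin of lateral wall fibrocytes, had 2436 and 951 CPM, against 692 and 369 CPM in the rest of the class. Kcnk2, another gene of the fibrocyte list, ran the other way, with 2293 and 1780 CPM, against 2445 and 2736 CPM in the rest. Of the 3 stria basal markers, Nr2f2 had 633 and 651 CPM in the top cells, against 463 and 377 CPM in the rest. Sox8, with only 6 and 2 UMIs in the whole class, had 17.8 and 12.8 CPM, against 3.69 and 0 CPM. Nrp2 had 0 CPM in the top cells, against 1.85 and 4.15 CPM in the rest, which was 1 UMI per library. The top cells were picked by Cldn11 itself, so these values describe the cells and carry no test.

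**Figure D2:**
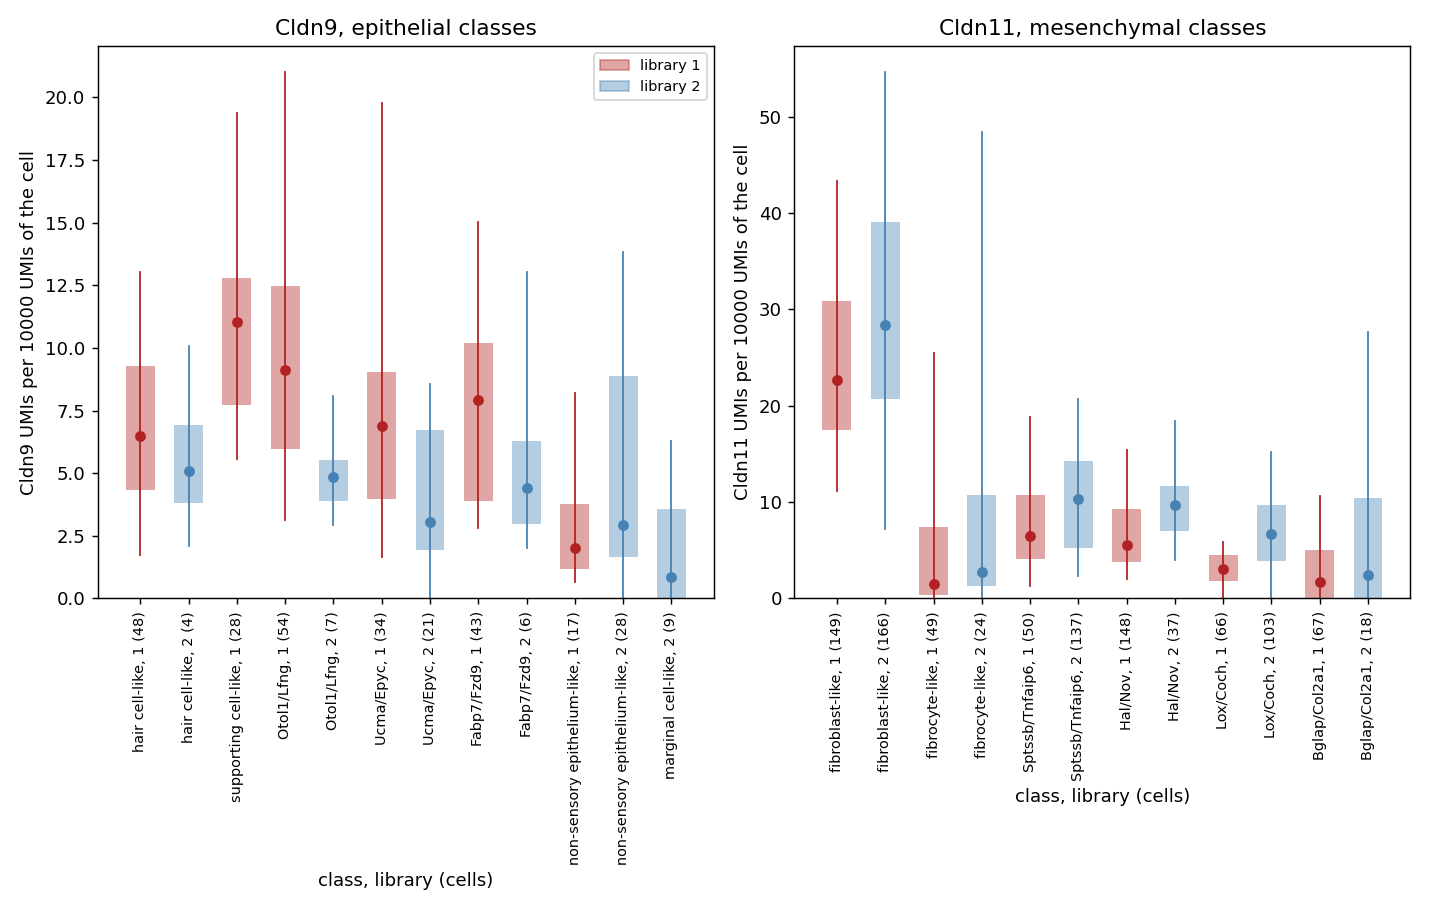
Cldn9 in epithelial classes (left) and Cldn11 in mesenchymal classes (right), as UMIs per 10000 UMIs of the cell. Points are medians over cells, boxes the middle 50% and lines the 5th to 95th percentiles, red for library 1 and blue for library 2. Fibrocyte-like cells have medians of 1.54 and 2.78 under long upper lines, while fibroblast-like cells sit at 22.7 and 28.4.

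Cldn11 was above the level of erythroid-like cells in some cells outside the mesenchyme. The 4 glia-like cells of library 1 held 239 UMIs, 3993 CPM (3503 to 4533), the highest level of Cldn11 in any class. The same 4 cells held 9 UMIs of Cldn14, 150.4 CPM (68.8 to 285), and 1 UMI of Cldn9, 16.7 CPM, while the 1 glia-like cell of library 2 had 0 UMIs of these 3 genes. Claudin 11 is also a protein of myelin in the central nervous system, and Mag, a myelin gene, stood at 2373 CPM in these cells. Non-sensory epithelium-like cells had 210.0 and 365 CPM of Cldn11, against 13.5 to 34.6 CPM in library 1 and 0 to 65.4 CPM in library 2 over the other fitted epithelial classes. The log2 fold change was 3.18 ± 0.38 (edgeR, adjusted p = 3.30e-15), and the call held under each alternative fit that could test it. The 8 mesenchymal compartment markers summed to 162 CPM in non-sensory epithelium-like cells of library 1 (6 of 8 with a UMI) and had 0 UMIs in library 2. The source of Cldn11 in this class was not tested. The 9 marginal cell-like cells of library 2 had 276 CPM (161 to 443). Erythroid-like cells gave a background of 32.3 and 28.0 CPM, above the values of hair cell-like, Fabp7/Fzd9, Ucma/Epyc and supporting cell-like cells in library 1, which had 13.5 to 20.1 CPM. Other fitted blood classes differed from this background. Macrophage-like cells had 138 and 38.5 CPM, from 17 and 4 UMIs, and S100a8/Ngp cells had 20.3 and 0 CPM.

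Tjp1, the scaffold ZO-1, was lower in epithelial than in mesenchymal classes. It had 40.1 and 33.1 CPM in epithelial cells, against 299 and 287 CPM in mesenchymal cells, with a log2 fold change of -2.42 ± 0.21 (edgeR, adjusted p = 3.71e-28). A UMI of Tjp1 was seen in 40.6% and 24.0% of epithelial cells and in 73.7% and 62.7% of mesenchymal cells, against 8.96% and 12.8% of erythroid-like cells. Hal/Nov cells were highest with 439 and 475 CPM and did not overlap with any other class. Lox/Coch cells had 248 and 333 CPM, Sptssb/Tnfaip6 cells 327 and 197 CPM, and fibroblast-like cells 229 and 179 CPM. Bglap/Col2a1 cells, at 94.1 and 60.8 CPM, and fibrocyte-like cells, at 58.8 and 62.8 CPM, lay below the other 4 mesenchymal classes.

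Tjp1 and Cldn11 did not follow the same order among mesenchymal classes. Against the mean of the other mesenchymal classes, Tjp1 was higher in Hal/Nov cells (1.66 ± 0.24, adjusted p = 7.53e-10) and lower in fibrocyte-like cells (-1.97 ± 0.34, adjusted p = 1.38e-07) by edgeR, and both calls held under each alternative fit that could test them. Lox/Coch cells were higher by 0.88 ± 0.25 (adjusted p = 0.00888, and 0.0559 without the library block; 0.50 in library 1 alone), and Bglap/Col2a1 cells were lower by -1.43 ± 0.35 (adjusted p = 0.00219). In fibroblast-like cells, where Cldn11 was highest, the Tjp1 difference was 0.18 ± 0.27 (adjusted p = 0.821). Among epithelial classes Tjp1 was highest in hair cell-like cells, at 80.5 and 55.5 CPM, whose range overlaps with the next class. The call in hair cell-like cells (1.13 ± 0.41, edgeR, adjusted p = 0.0236) rested on library 1, since the 4 cells of library 2, with 2 UMIs, differed by 0.00 from the mean of the other epithelial classes.

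The claudin mix, the share of all claudin UMIs that each claudin took, restates these levels within a class. The files list 33 claudin genes, of which 20 had a UMI. A UMI counts a molecule, so shares were not divided by gene length, and they say nothing of protein. Averaged over the 5 fitted epithelial classes, Cldn9 took 41.9% ± 3.6 of claudin UMIs, and averaged over the 6 mesenchymal classes Cldn11 took 93.6% ± 0.61 (SD, n = 2 libraries). Without 2 single cells described below, the SD for Cldn11 was 2.85. Summed claudins ran from 1055 to 2251 CPM in fitted epithelial classes and from 351 to 3084 CPM in mesenchymal classes.

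Hair cell-like cells had a mix led by Cldn9. It took 64.7% (exact 95% interval 61.3 to 68.1, of 791 claudin UMIs) and 55.3% (38.3 to 71.4, of 38), Cldn14 took 14.9% and 26.3%, and Cldn7, a claudin outside the set, 9.61% and 7.89%. Supporting cell-like cells of library 1 were alike, with Cldn9 at 66.4% (62.7 to 69.9), Cldn14 at 11.7% and Cldn7 at 8.01%. Otol1/Lfng cells had Cldn9 at 51.6% and 45.1% and Cldn3 at 15.6% and 11.8%. In Ucma/Epyc cells Cldn9 took 41.8% and 34.9%, Cldn3 19.4% and 21.4%, and Cldn8, a claudin of tight and ion-selective epithelia, 8.11% and 6.77%. Fabp7/Fzd9 cells had Cldn9 at 49.9% and 35.8%, Cldn7 at 10.6% and 20.9% and Cldn23 at 10.7% and 7.46%. The 6 Fabp7/Fzd9 cells of library 2 also held 491 UMIs of the fibrocyte gene Otos, 5458 CPM, against 128 CPM in library 1. The source of this Otos was not tested, and all values given for these 6 cells include it.

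Non-sensory epithelium-like cells had no single leading claudin. Cldn8 took 22.5% (17.7 to 27.8) and 18.0% (14.3 to 22.2), Cldn9 14.3% and 25.7%, Cldn3 16.4% and 18.5%, Cldn11 15.7% and 16.2%, and Cldn7 11.8% and 10.5%, of 280 and 389 claudin UMIs. Cldn8 was higher there than in the mean of the other epithelial classes (log2 fold change 3.57 ± 0.30, edgeR, adjusted p = 5.88e-30) and lower in hair cell-like cells (-5.16 ± 0.63, adjusted p = 1.11e-14). Marginal cell-like cells had Cldn11 at 35.4% (22.2 to 50.5), Cldn9 at 29.2%, and Cldn3 and Cldn8 at 16.7% each, of 48 claudin UMIs.

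Mesenchymal classes had nearly a single claudin. Cldn11 took 98.2% and 99.1% in fibroblast-like cells, 91.5% and 97.0% in fibrocyte-like cells, 93.6% and 98.3% in Hal/Nov cells, 90.02% and 96.7% in Lox/Coch cells, and 89.3% and 94.2% in Bglap/Col2a1 cells. In Sptssb/Tnfaip6 cells it took 96.4% in library 1 and 79.0% in library 2. The lower share of library 2 came from 1 cell, which held 164 Cldn4 UMIs (all of that class), 28 of Cldn3 and 20 of Cldn7, together with 15 Epcam, 29 Krt8 and 70 Krt18 UMIs, markers of epithelial cells. That cell also carries the call that Cldn3 was higher in Sptssb/Tnfaip6 than in other mesenchymal classes (log2 fold change 4.44 ± 0.56, edgeR, adjusted p = 1.70e-12), since 28 of the class's 30 Cldn3 UMIs were its own and library 1 had 0. Likewise, 1 cell of non-sensory epithelium-like cells in library 1 held all 32 Cldn5 UMIs of that class and library. It had UMIs of 8 of 9 endothelial markers. This cell held 58205 of the 209551 UMIs of that class and library. The CPM values and edgeR calls given for the class include it, and were not repeated without it. Without these 2 single cells the mean shares were 42.3% for Cldn9 and 95.2% for Cldn11. For Cldn11 the libraries then stood further apart, at 93.2% and 97.2%.

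**Figure D3:**
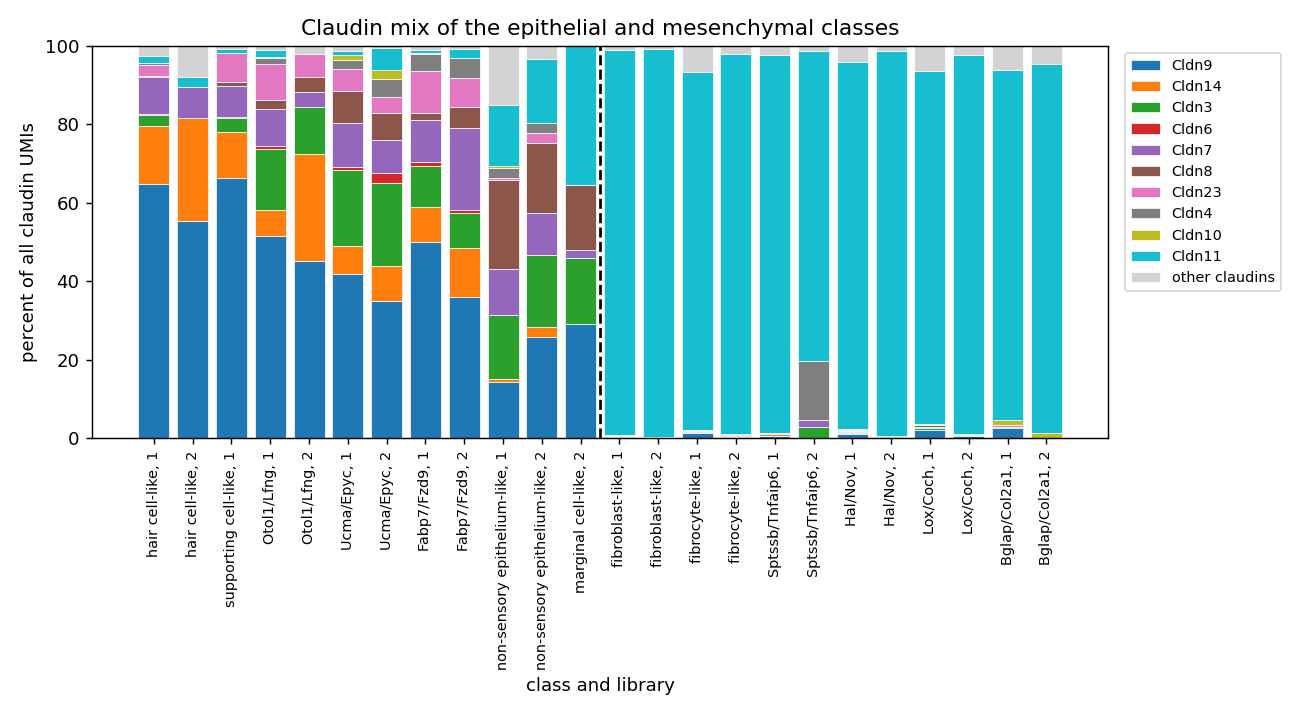
Share of all claudin UMIs taken by each claudin, in percent, for each epithelial class (left of the dashed line) and mesenchymal class (right of it) and each library, numbered after the class name. Cldn9 leads hair cell-like cells with 64.7% and 55.3%, Cldn11 takes 89.3% or more in all mesenchymal bars except Sptssb/Tnfaip6 cells of library 2, and in non-sensory epithelium-like bars no claudin passes 25.7%. Cldn5, at 11.4% in library 1 of that class, is drawn with the other claudins.

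The wider junction lists held 81 further symbols, of which 72 were in the files and 54 were tested. Of these, 26 were higher in epithelial than in mesenchymal classes, 12 were lower and 16 did not pass (edgeR, adjusted p threshold 0.05), again beside 20.7% and 26.6% over all genes. The lists were chosen with earlier results of these data known. Listed genes near 0 in one compartment could pass the low-count filter only by being high elsewhere. Cldn23 and Cldn8, for example, had at most 1.66 and 2.71 CPM in any mesenchymal sum, below the filter's 16.8 CPM. The counts and the medians of the lists are thus set in part by the filter and are descriptions. Values of the 20 with the largest change follow, by role.

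Of 10 other claudins tested, 3 were higher, none was lower and 7 did not pass, with a median log2 fold change of 1.37 over the list. Cldn7, with 628 UMIs in epithelial and 30 in mesenchymal cells, had a log2 fold change of 6.96 ± 0.26 (edgeR, adjusted p = 4.55e-148). Cldn23, with 434 and 11 UMIs, had 6.39 ± 0.40 (adjusted p = 1.15e-56), and Cldn8, with 292 and 13, had 5.57 ± 0.75 (adjusted p = 1.28e-12). Cldn4 did not pass (5.80 ± 2.00, adjusted p = 0.0563), with 139 UMIs in epithelial cells and 164 in mesenchymal cells, all 164 in the single cell described above. Among epithelial classes Cldn23 was lower in hair cell-like cells (-1.98 ± 0.40, adjusted p = 7.46e-06) and higher in Fabp7/Fzd9 cells (1.65 ± 0.27, adjusted p = 6.62e-08). Cldn13, named here after its values were seen, had 789 and 29 UMIs in erythroid-like cells of libraries 1 and 2, the most of any claudin there.

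Of the other strand and tricellular proteins, 4 of 9 were higher, 5 were lower and none failed to pass, with a median of -1.58. Marveld3 (6.19 ± 0.46), a relative of tricellulin, Lsr (5.01 ± 0.30), an angulin, and F11r (4.90 ± 0.23), the adhesion molecule JAM-A, were higher in epithelial classes. They had 267, 336 and 537 UMIs in epithelial cells, against 9, 47 and 46 in mesenchymal cells. Clmp (-5.99 ± 0.36) and the JAM genes Jam2 (-4.90 ± 0.38) and Jam3 (-2.10 ± 0.24) were lower, with 9, 12 and 71 UMIs in epithelial cells, against 1553, 664 and 761 in mesenchymal cells. Marveld1 (-3.71 ± 0.45) was lower as well. JAM genes stood on opposite sides, F11r with Cldn9 and Jam2 and Jam3 with Cldn11.

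Of 23 plaque genes, 12 were higher and 4 lower, with a median of 0.63. Cgn (6.27 ± 0.31), which encodes cingulin, Tjp3 (6.06 ± 0.57), the ZO-3 relative of Tjp1, and the polarity genes Crb3 (5.77 ± 0.29), Pard6b (4.90 ± 0.64) and Prkcz (4.07 ± 0.26) were higher in epithelial classes. Magi2 (-2.34 ± 0.47) and Pard6g (-2.13 ± 0.28) were lower. Tjp3 had 111 UMIs in epithelial and 3 in mesenchymal cells, and Pard6g had 54 and 651.

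Of 12 adherens junction genes tested, 7 were higher and 3 lower, with a median of 0.46. Pvrl4 (5.89 ± 0.60), which encodes nectin 4, was higher, and the cadherins Cdh11 (-3.80 ± 0.35) and Cdh2 (-2.48 ± 0.47) were lower. Cdh1, which encodes E-cadherin and is often used as an epithelial marker, is named here after its values were seen. It was highest in fibrocyte-like cells, with 291 and 387 CPM, above the 138 and 174 CPM of non-sensory epithelium-like cells and the 21.5 and 55.5 CPM of hair cell-like cells. In epithelial against mesenchymal classes Cdh1 was called higher (0.60 ± 0.20, edgeR, adjusted p = 0.00886), with -0.02 in library 2 alone. Since it was picked for its level in fibrocyte-like cells, that level carries no test.

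**Figure D4:**
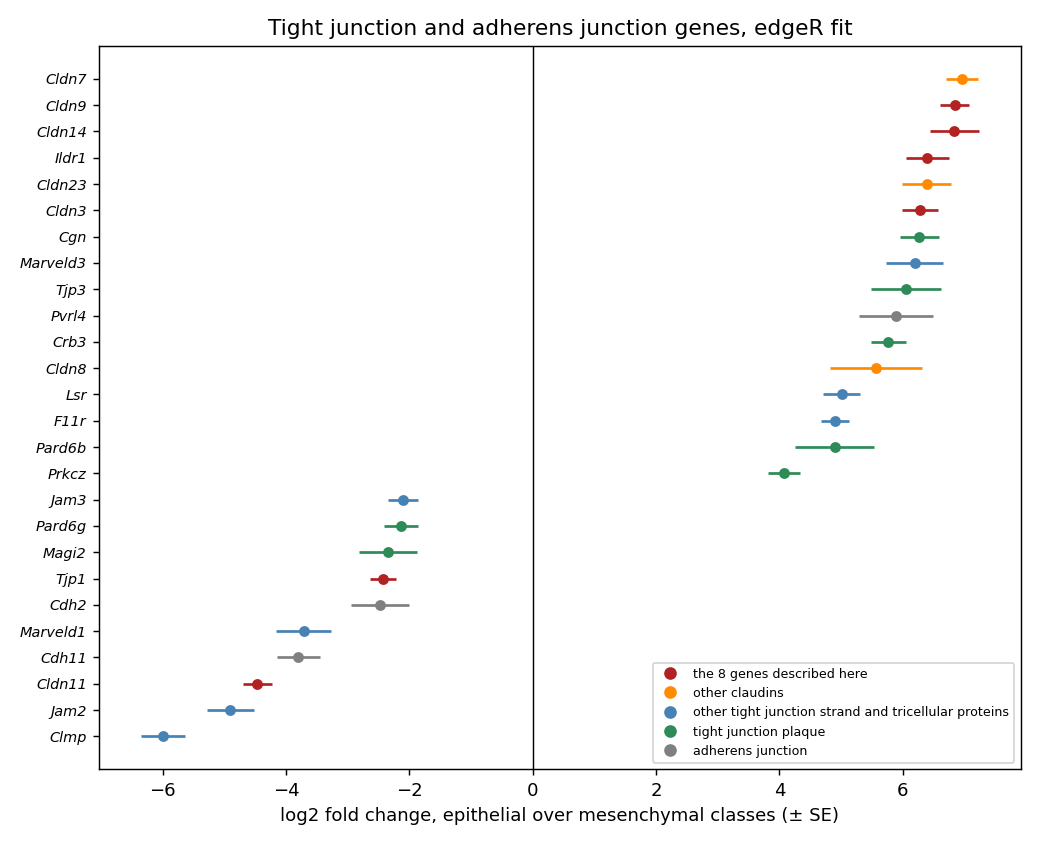
Log2 fold change of epithelial over mesenchymal classes with its SE, from edgeR, for 6 of the 8 genes and the 20 junction genes with the largest change. Cldn6 (no SE) and Marveld2 (0 mesenchymal UMIs) are left out, and Cldn9 (6.85) and Cldn11 (-4.47) lie near opposite ends.

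The genes whose levels ran most alike over the 28 sums of class and library were sought among genes kept out of the clustering, by Pearson's r of log2(CPM + 10), here with TMM-scaled CPM. The sums share libraries and differ in depth, so r is a description. Among the 3 nearest to Cldn9 were Smim22 (0.97) and Bspry (0.95). Cldn14 was nearest to Cldn9 (0.95), Tmprss3 (0.95) and Rab15 (0.95), and Cldn3 to Slc44a3 (0.95), Prr15l (0.93) and Crb3 (0.93). Ildr1 was nearest to Tmem221 (0.96), Kdf1 (0.94) and Kcnj16 (0.94), and Marveld2 to Mcoln3 (0.94), Tmie (0.92) and Atp11a (0.92). Mcoln3 and Tmie are known as hair cell genes. Kcnj16 is 1 of the 84 genes whose transcripts share runs of 50 bases with those of Ildr1, so this likeness could include shared reads. Among the 3 nearest to Cldn11 were Sned1 (0.93) and Rapgef3 (0.92). Tjp1 was nearest to Cav1 (0.92), Sdpr (0.90) and Adgrd1 (0.90). Cldn6, from 44 UMIs, was nearest to Gm13262 (0.95), Unc5b (0.95) and Alox12 (0.91). Between genes of the set, r was 0.91 for Cldn9 and Ildr1, 0.84 for Cldn9 and Cldn3, 0.77 for Cldn11 and Tjp1, and -0.62 for Cldn11 and Cldn9.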

How the data were processed

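Single-cell RNA sequencing of cochlea gave 2 libraries in 1 group. The authors deposited whole-number UMI counts per gene and barcode, made with Cell Ranger 2.1.0 on mm10, per the submitters' processing notes; whether counting used strand is not stated there. The 8 genes, the lists and the tests were chosen with earlier results of these data known. Barcodes with under 300 genes (275 and 60) or over 20% mitochondrial UMIs (4 and 16) were removed, then Scrublet calls at an expected rate of 2% (2 and 4). Counts scaled to 10000 per cell were clustered with scanpy 1.11.5 (2036 genes, 30 components, 15 neighbours, Leiden resolution 1.0, seed 0), and 13961 genes, including all listed ones, stayed out. A cluster took a list's name with at least 3 markers and 40% of the list higher by a log2 fold of 1, a margin of 20 percentage points (a tie was allowed from 60% of the list) and a marker among its 10 leading genes. These thresholds, and a split of 1 cluster into fibrocyte-like, marginal cell-like and glia-like cells, were set after clusters had been seen. Free RNA was not corrected for.

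Counts summed per class and library (at least 4 cells in each, 14 classes, 28 sums, 27915 to 4829545 UMIs) entered 1 edgeR 4.0.16 quasi-likelihood fit (R 4.3.3, limma 3.58.1; TMM factors 0.168 to 2.08; filterByExpr with a minimum count of 10, 11519 genes) with the library as a block, since all sums of a library share that library, which is what pairs them. The 5634 of these kept out of clustering were tested, adjusting p-values by Benjamini and Hochberg per contrast. Contrasts were the mean of epithelial minus the mean of mesenchymal classes, each class minus the mean of the others, and, added after seeing the data, each class minus the mean of the others of its compartment. With 13 residual degrees of freedom and infinite estimated prior degrees of freedom, very small p-values rest on a common spread. The SE is the fold change over the root of F, and is left out where p is near 1. CPM values are raw, not TMM-scaled, except in likeness. Intervals cover counting error only, and 0 counts were given a limit of 3. The depth of small sums, such as the 4 hair cell-like cells of library 2 (36019 UMIs), limits precision. Named genes were the 8, the 20 of the other lists with the largest change among those called, and the 3 most alike for each of the 8, of which some are not reported here. The fit was tested on simulated data. Alternatives were DESeq2 1.42.0 and its size factors, no low-count filter, no block, 10 cells per class, stricter cell filters (500 genes, 10% mitochondrial UMIs), kept doublets and resolution 2.0.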

Additional observations from a re-analysis of the deposited data

Results flagged for a closer look

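Signal of 4 of the 8 genes appeared in the 355 barcodes that the cell filter removed, above the 3 counts that a count of 0 allows. Cldn11 had 50 UMIs, Cldn9 had 46, Tjp1 had 12 and Cldn3 had 4, of 2308293 UMIs in these barcodes. For Cldn9, 24 of the UMIs were in the 4 barcodes of library 1 with over 20% mitochondrial UMIs, at 845 CPM, and 11 were in 16 such barcodes of library 2. The 275 barcodes of library 1 with under 300 genes had 11 Cldn9 UMIs, at 6.57 CPM, against 12.6 CPM in erythroid-like cells of that library.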

How the results depend on the processing

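In epithelial against mesenchymal classes, the 7 called genes of the set kept their direction and their call under the 10 alternative fits. Log2 fold changes ranged from 6.55 to 6.96 for Cldn9, from 6.06 to 7.48 for Cldn3, from 6.00 to 7.12 for Cldn14, from 6.02 to 6.47 for Ildr1, from -4.79 to -3.31 for Cldn11 and from -2.69 to -2.36 for Tjp1. For Marveld2 the highest adjusted p was 0.0272. Genes called numbered 1165 higher and 1498 lower, and 972 lower with at least 10 cells per class and library, which leaves fewer classes. That setting also left 20 higher and 9 lower calls of the 8 genes for each class against the mean of all other classes, of 39 and 17. Without the replicate block the pairing of sums by library was dropped, and 1108 genes were higher and 1397 lower. Within compartments, the 14 higher calls of the 8 genes fell to 7 with DESeq2, 9 with no replicate block, 8 with at least 10 cells and 6 with stricter cell filters, and the cause was not tested. The other alternatives changed no count by over 1.5 times. The Cldn11 share in mesenchymal classes was 95.3% ± 2.76 with stricter filters and 95.2% ± 2.85 without the 2 single cells (SD, n = 2 libraries). With all cells it was from 93.2% to 94.0% in single libraries, and without the 2 single cells 93.2% and 97.2%. The Cldn9 share in epithelial classes was from 39.4% to 44.5% in single libraries. Thinning to 2000 UMIs gave shares of cells of 71.4% and 52.0% for Cldn9 in epithelial cells and 69.9% and 82.3% for Cldn11 in mesenchymal cells, of 92.6% and 94.6% with all UMIs. Leaving out the 2 single cells, leaving out the blood classes and keeping the split cluster whole were alternatives chosen after seeing the data.

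Among values called in one fit or the other, directions turned in 10 cases, and the cause was not tested. Values called in neither are not counted here. Each library alone gave, against all other classes, -0.43 and 2.05 for Cldn6 and -0.95 and 1.37 for Marveld2 in Otol1/Lfng cells (without library 1, then without library 2), -2.64 and 0.96 for Cldn3 in hair cell-like cells, and 2.13 and -0.21 for Cldn14 in non-sensory epithelium-like cells. For Tjp1 in hair cell-like cells against other epithelial classes the values were -0.00042 and 1.17. For Cldn3 in Sptssb/Tnfaip6 cells, without library 2, they were -2.66 against all other classes and -0.51 against other mesenchymal classes, the last being 3.30 without library 1. With stricter cell filters Cldn3 was at -2.25 in Sptssb/Tnfaip6 cells against all other classes, and at -0.71 in Fabp7/Fzd9 cells against other epithelial classes (edgeR, adjusted p = 0.0495). With at least 10 cells per class, only non-sensory epithelium-like and Ucma/Epyc cells stayed as epithelial classes, and Cldn3 was at -0.34 in the first of them (edgeR, adjusted p = 0.669).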
